A study of Mus musculus with 107 samples.

Results

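The genes described here are 40 DNA replication and G1/S genes, followed in mouse ear skin 24 h after sulfur mustard. The members were chosen by gene symbol from a list that covers origin licensing and the replicative helicase (14 genes), the polymerases, clamp and fork proteins (10 genes), nucleotide supply (5 genes), G1/S regulators (8 genes), and chromatin replication with histone mRNA (3 genes). Mitotic genes were kept out of the list and serve only as context. All 40 had a probe set that names 1 gene, out of 18194 such genes on the arrays. Each was represented by the probe set with the highest mean deposited signal, before scaling, over the 43 ears on both arrays. For 35 members this probe set lay on the first array of the pair (array A) and for 5 on the second (array B: E2f2, Gins2, Mcm5, Orc1 and Tyms). The choice favours array A, since trimmed means before scaling ran from 18.8 to 52.0 on array B and from 66.9 to 268 on array A. The minimum mean scaled signal of 100 was passed by 38 members. Cdc6, which loads the helicase (mean 57.8), and Pole, the catalytic subunit of polymerase epsilon (mean 89.1), fell below it and were not tested.

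Sulfur mustard, bis-(2-chloroethyl) sulfide, is a blistering agent that alkylates DNA. Right ears received 0.08 mg (0.5 µmol) of it in 5 µL of methylene chloride, and left ears 5 µL of methylene chloride alone (the vehicle). The 3 other mustard groups were painted 15 min earlier with a drug in ethanol: dimercaprol, a dithiol chelator (6.25 mg), indomethacin, a cyclooxygenase inhibitor (1.34 mg), or octylhomovanillamide (OHV), a vanilloid compound (0.6 mg in one label and 0.585 mg in another). The groups were 21 vehicle ears, 5 ears with mustard alone, 6 with dimercaprol and mustard, 6 with indomethacin and mustard, and 5 with OHV and mustard, all on both arrays. On array A only, there were 5 untouched (naive) ears of 3 animals, 3 ears with ethanol, 4 with dimercaprol alone, 4 with indomethacin alone and 5 with OHV alone. Ears with mustard alone are labelled without pretreatment, so a drug and its ethanol cannot be told apart in comparisons with them, and the drugs differ in dose and volume. The labels used here name no strain or sex. An ear biopsy of 8 mm holds epidermis, follicles, dermis, cartilage and muscle, and all 7 basal keratinocyte markers were measured. In such bulk tissue, fewer cells of a type and less RNA per cell cannot be told apart.

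In G1, cyclin D with Cdk4 and cyclin E with Cdk2 phosphorylate the retinoblastoma protein and release E2F factors, which switch on genes for DNA synthesis. Origins are licensed when ORC, Cdc6 and Cdt1 load the Mcm2 to Mcm7 helicase, which Cdc45 and the GINS complex then activate. DNA polymerase alpha and primase start each strand, RFC loads the PCNA clamp, and ribonucleotide reductase, thymidylate synthase and thymidine kinase supply nucleotides. In skin, these genes are known to be expressed in the dividing basal layer of the epidermis and in hair follicle matrix.

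Promoters were looked up because the members share E2F as a known regulator. Of the 40 members, 33 had an entry in the RefSeq promoter table (GRCm38.p6), with 37 windows from 250 bases before to 50 bases after a start site. The E2F letters TTTCCCGC, TTTCGCGC, TTTGCCGC and TTTGGCGC, read on both strands with overlaps counted, occurred in 13 of the 37 member windows (35.1%) and in 744 of all 32851 windows (2.26%). The letters CCAAT occurred in 62.2% of member windows against 37.4% of all windows. The cell cycle homology letters TTTGAA occurred in 10.8% of member windows against 17.9% of all. In the 38 windows of mitotic genes the shares were 7.89% for the E2F letters, 81.6% for CCAAT and 73.7% for TTTGAA. Such matches describe letters only.

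The 150 bases before the start site are shown for 4 members on which the results turn, 3 that fell after mustard and 1 that rose, with E2F letters and CCAAT (or its reverse ATTGG) in capitals. They lie at chrX:93632156-93632305 (minus strand), chr5:151651209-151651358 (minus strand), chr1:128359706-128359855 (minus strand) and chr12:24708104-24708253 (plus strand) of GRCm38.p6.
Pola1: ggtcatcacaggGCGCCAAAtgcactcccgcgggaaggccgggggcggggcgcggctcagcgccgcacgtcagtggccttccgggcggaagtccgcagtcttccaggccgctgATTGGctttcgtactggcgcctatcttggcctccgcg
Rfc3: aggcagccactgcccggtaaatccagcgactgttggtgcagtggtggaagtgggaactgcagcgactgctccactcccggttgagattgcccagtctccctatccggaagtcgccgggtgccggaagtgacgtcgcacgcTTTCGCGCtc
Mcm6: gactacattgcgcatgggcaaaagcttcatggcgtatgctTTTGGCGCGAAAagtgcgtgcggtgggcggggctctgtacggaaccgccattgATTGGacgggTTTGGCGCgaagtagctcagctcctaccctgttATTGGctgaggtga
Rrm2: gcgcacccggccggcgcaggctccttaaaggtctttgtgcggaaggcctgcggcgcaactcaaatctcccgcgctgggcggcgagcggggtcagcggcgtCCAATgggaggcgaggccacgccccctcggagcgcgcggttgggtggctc
Pola1, Rfc3 and Mcm6 hold E2F letters in this stretch, while Rrm2 holds CCAAT and none of the E2F letters. Among matched members, E2F letters were present in the windows of 6 of the 10 that fell after mustard, 1 of the 4 that rose and 5 of the 18 tested members that were not called.

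Values are MAS5 signals, scaled so that every array has a trimmed mean of 500. A called difference is one with a Benjamini-Hochberg adjusted p below 0.05 in limma over all kept probe sets of that array. Before scaling, trimmed means ran from 66.9 to 268 on array A, and the 2 dimmest mustard arrays were those of ears 5 and 37 (86.3 and 66.9). In the same ears the Gapdh signal at the 3' end stood highest over that at the 5' end among the mustard ears, a measure of RNA integrity, at 0.63 and 0.78 on the log2 scale against -0.06 ± 0.13 (SD, n = 21) in vehicle ears. A fit with this ratio as a covariate is given below, and most calls of mustard against vehicle were lost in it. Beyond that fit, the part of this difference in the results was not tested. Calls of mustard against vehicle that were lost without these ears are named. Signals of one probe set are not comparable with those of another.

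The question put first was how mustard alone changed these genes against the vehicle. Mustard split them: 13 members fell, 5 rose and 20 were not called, with a median log2 difference of -0.17 over the 38. The members that fell most were Pola1, Rfc3, Gins2, Gins1 and Mcm6. Cyclin D1 (Ccnd1) and the ribonucleotide reductase subunit Rrm2 rose most, and they were the only members whose mustard ears did not overlap the vehicle ears (2 of 33 higher and 0 lower on array A, against 2.27% and 1.69% of all probe sets, and 0 of 5 on array B, against 0.69% and 1.12%). On array A, 10 of 33 members were lower and 4 higher, against 23.7% lower and 19.2% higher over all 15925 probe sets, so that both shares were near the background. On array B, 3 of 5 were lower and 1 higher, against 13.2% and 12.9%. The median over all probe sets was -0.01 on array A and 0.14 on array B, and the members' medians were -0.17 and -0.60.

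**Figure D1:**
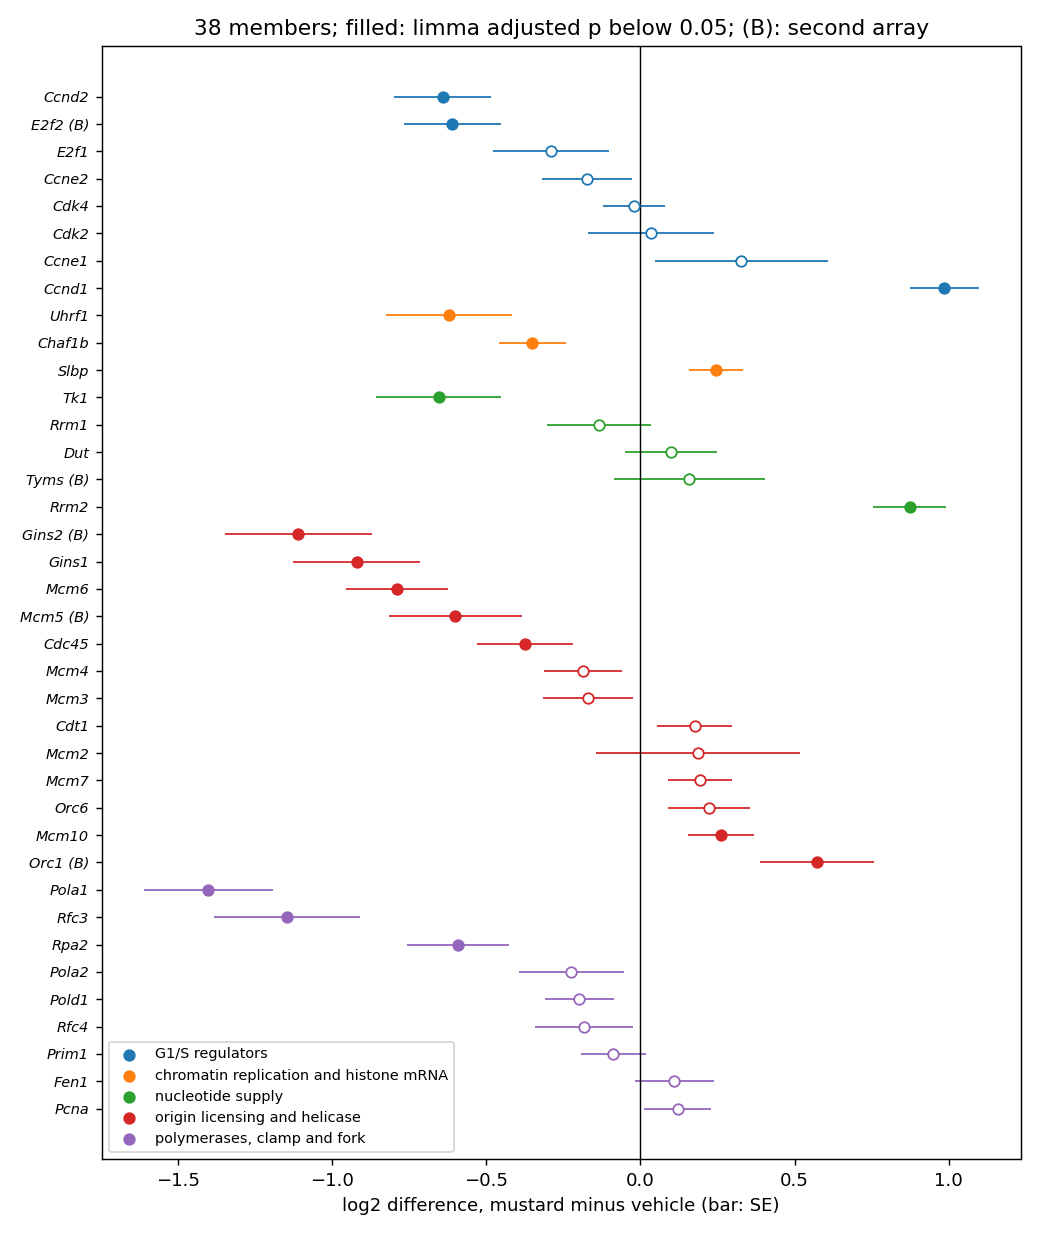
Log2 difference between ears with mustard alone (n = 5) and vehicle ears (n = 21) for the 38 tested members, grouped by role, with the standard error as a bar. Filled points are the 18 members with a limma adjusted p below 0.05, which run from -1.40 for Pola1 to 0.99 for Ccnd1.

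The counts by role that follow stand beside the shares over all probe sets (23.7% lower and 19.2% higher on array A, 13.2% and 12.9% on array B). No difference between roles was tested. Among the G1/S regulators, 2 of 8 fell, 1 rose and 5 were not called. Ccnd1, the cyclin that responds to mitogens and partners Cdk4, had a vehicle signal from 916 to 2147 with a median of 1644 over 21 ears. The 5 mustard ears read 2983, 3080, 3521, 3480 and 2882. All 5 lay above the highest vehicle ear. The mean rose from 1625 ± 295 (SD, n = 21) to 3189 ± 293 (SD, n = 5), a 1.98-fold difference (log2 0.99, SE 0.11, adjusted p = 3.75e-09).

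Ccnd2, the related D-type cyclin, moved the other way. Vehicle ears ran from 2698 to 5290 with a median of 3960, and the mustard ears of animals 1, 3, 5, 36 and 37 read 2212, 1832, 2318, 5893 and 1951. Thus 4 of the 5 were below every vehicle ear, and ear 36 was above every one. The log2 difference was -0.64 (SE 0.16, adjusted p = 0.00101). Without ears 5 and 37 it was -0.47 and was no longer called (adjusted p = 0.0738).

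E2f2, an activating E2F factor measured on array B, fell by 0.61 on the log2 scale (SE 0.16, adjusted p = 0.00297). Its mustard ears read 927, 808, 778, 1410 and 510 against vehicle ears from 767 to 1744, so only ear 37 was below the vehicle range. With the animal as a block it was not called (log2 -0.37, adjusted p = 0.238). Its call was also lost without the mustard ears that were dimmest on array A. E2f1 (-0.29), Ccne2 (-0.17), Cdk4 (-0.02), Cdk2 (0.04) and Ccne1 (0.33) did not pass the test.

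Of the 13 origin and helicase members, 5 fell, 2 rose and 6 were not called. Gins2 and Gins1 encode subunits of the GINS complex, which with Cdc45 activates the Mcm helicase. Gins2 signals ran from 421 to 1865 in vehicle ears (median 1212), and the mustard ears read 758, 337, 617, 776 and 377. All 5 were below the vehicle mean, with 2 below the lowest vehicle ear (log2 -1.11, SE 0.24, adjusted p = 0.00037).

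For Gins1 the vehicle ears ran from 138 to 261 (median 186), and the mustard ears read 130, 87.8, 152, 166 and 12.7. The lowest value, in ear 37, corresponds to a deposited signal of only 1.7. The log2 difference was -0.92 (SE 0.21, adjusted p = 0.000341), and it shrank to -0.51 without ears 5 and 37, still called (adjusted p = 0.0174).

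Mcm6, a subunit of the helicase, had vehicle signals from 412 to 884 (median 781) and mustard signals of 491, 371, 394, 681 and 244. Of these, 3 were below every vehicle ear, and ear 36 was the highest. The log2 difference was -0.79 (SE 0.17, adjusted p = 0.000149). It was -0.53 without ears 5 and 37 (adjusted p = 0.0405).

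The other helicase subunits did not all follow. Mcm5 fell by 0.60 (adjusted p = 0.0334) and Cdc45, which joins Mcm and GINS, by 0.37 (adjusted p = 0.0468). Mcm4 (-0.19), Mcm3 (-0.17), Mcm2 (0.19) and Mcm7 (0.19) were not called, nor were the loading factor Cdt1 (0.18) and the origin subunit Orc6 (0.22). A dimmer Mcm2 probe set read -0.41 with adjusted p = 0.0333, so the probe sets of this gene disagree in sign. Mcm5 and Cdc45 were not called without ears 5 and 37 or, for Cdc45, with the animal as a block (adjusted p = 0.0606).

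Orc1, the largest origin recognition subunit, and Mcm10, which helps to activate the helicase, rose. Orc1 mustard ears read 910, 1251, 1327, 876 and 1546, all above the vehicle mean of 810 ± 260 (SD, n = 21) and 2 of them above the highest vehicle ear (log2 0.57, SE 0.18, adjusted p = 0.0178). Mcm10 read 305, 270, 309, 271 and 445 against 190 to 328 in vehicle ears, with only ear 37 outside that range (log2 0.26, SE 0.11, adjusted p = 0.0466). Neither was called with the animal as a block, where Orc1 was 0.14 (adjusted p = 0.771) and Mcm10 0.22 (adjusted p = 0.384). In that fit Orc6 was called higher (0.38, adjusted p = 0.0422). The calls of Orc1 and Mcm10 were also lost without the mustard ears that were dimmest on array A.

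Of the 9 polymerase, clamp and fork members, 3 fell and none rose (limma, with 3 at an unadjusted p below 0.05). Pola1 is the catalytic subunit of polymerase alpha, which extends primers at the fork. Its vehicle ears ran from 134 to 263 (median 176), and the mustard ears of animals 1, 3, 5, 36 and 37 read 90.3, 51.5, 56.8, 155 and 11.2. Of the 5, 4 were below every vehicle ear, and ear 36 was inside their range. The mean fell from 186 ± 34.1 (SD, n = 21) to 73.0 ± 53.9 (SD, n = 5), a log2 difference of -1.40 (SE 0.21, adjusted p = 8.42e-07).

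Rfc3, a subunit of the clamp loader, had vehicle signals from 137 to 365 (median 275). The mustard ears read 182, 84.7, 180, 210 and 21.7, with ears 3 and 37 below the vehicle range and the other 3 inside it. The log2 difference was -1.15 (SE 0.24, adjusted p = 0.000129). Without ears 5 and 37, Pola1 was -0.89 (adjusted p = 0.00141) and Rfc3 -0.77 (adjusted p = 0.0131), both still called.

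Rpa2, a subunit of the single-strand binding protein, fell by 0.59 (SE 0.17, adjusted p = 0.00331), and was not called without ears 5 and 37 (-0.30, adjusted p = 0.261). Pcna, the sliding clamp, had vehicle ears from 2160 to 4846 and mustard ears at 4217, 3376, 4144, 3800 and 2602, all inside that range (log2 0.12, SE 0.11, adjusted p = 0.387). Pola2 (-0.22), Pold1 (-0.20), Rfc4 (-0.18), Prim1 (-0.09) and Fen1 (0.11) were not called. Dimmer probe sets of Rfc4 (-0.79, adjusted p = 4.52e-05) and Fen1 (-0.37, adjusted p = 0.0172) were.

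Of the 5 nucleotide supply members, Rrm2 rose and Tk1 fell, while Rrm1 (-0.13), Dut (0.10) and Tyms (0.16) were not called. Rrm2 is the small subunit of ribonucleotide reductase, which makes deoxyribonucleotides. Vehicle ears ran from 424 to 1041 (median 798), and mustard ears read 1540, 1277, 1964, 1397 and 1196, all above the highest vehicle ear. The mean rose from 798 ± 139 (SD, n = 21) to 1475 ± 303 (SD, n = 5), a 1.83-fold difference (log2 0.87, SE 0.12, adjusted p = 1.2e-07).

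Tk1, the thymidine salvage kinase, split the mustard ears. Ears 3 and 37 read 81.3 and 90.4, under the vehicle range of 186 to 415, while ears 1, 5 and 36 read 332, 278 and 321, inside it. The log2 difference was -0.65 (SE 0.20, adjusted p = 0.00785). It was -0.51 and not called without ears 5 and 37 (adjusted p = 0.104).

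All 3 chromatin members were called. Uhrf1, which brings the maintenance methyltransferase to new DNA, fell by 0.62 (SE 0.21, adjusted p = 0.0128), with mustard ears at 188, 134, 187, 346 and 181 and vehicle ears from 137 to 510. Chaf1b, a subunit of the histone chaperone CAF-1, fell by 0.35 (adjusted p = 0.00847). Slbp, which binds histone mRNA, rose by 0.25 (adjusted p = 0.0228), with mustard ears from 797 to 1047 and vehicle ears from 582 to 982. None of the 3 was called without ears 5 and 37, and Chaf1b and Slbp were not called with the animal as a block.

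**Figure D2:**
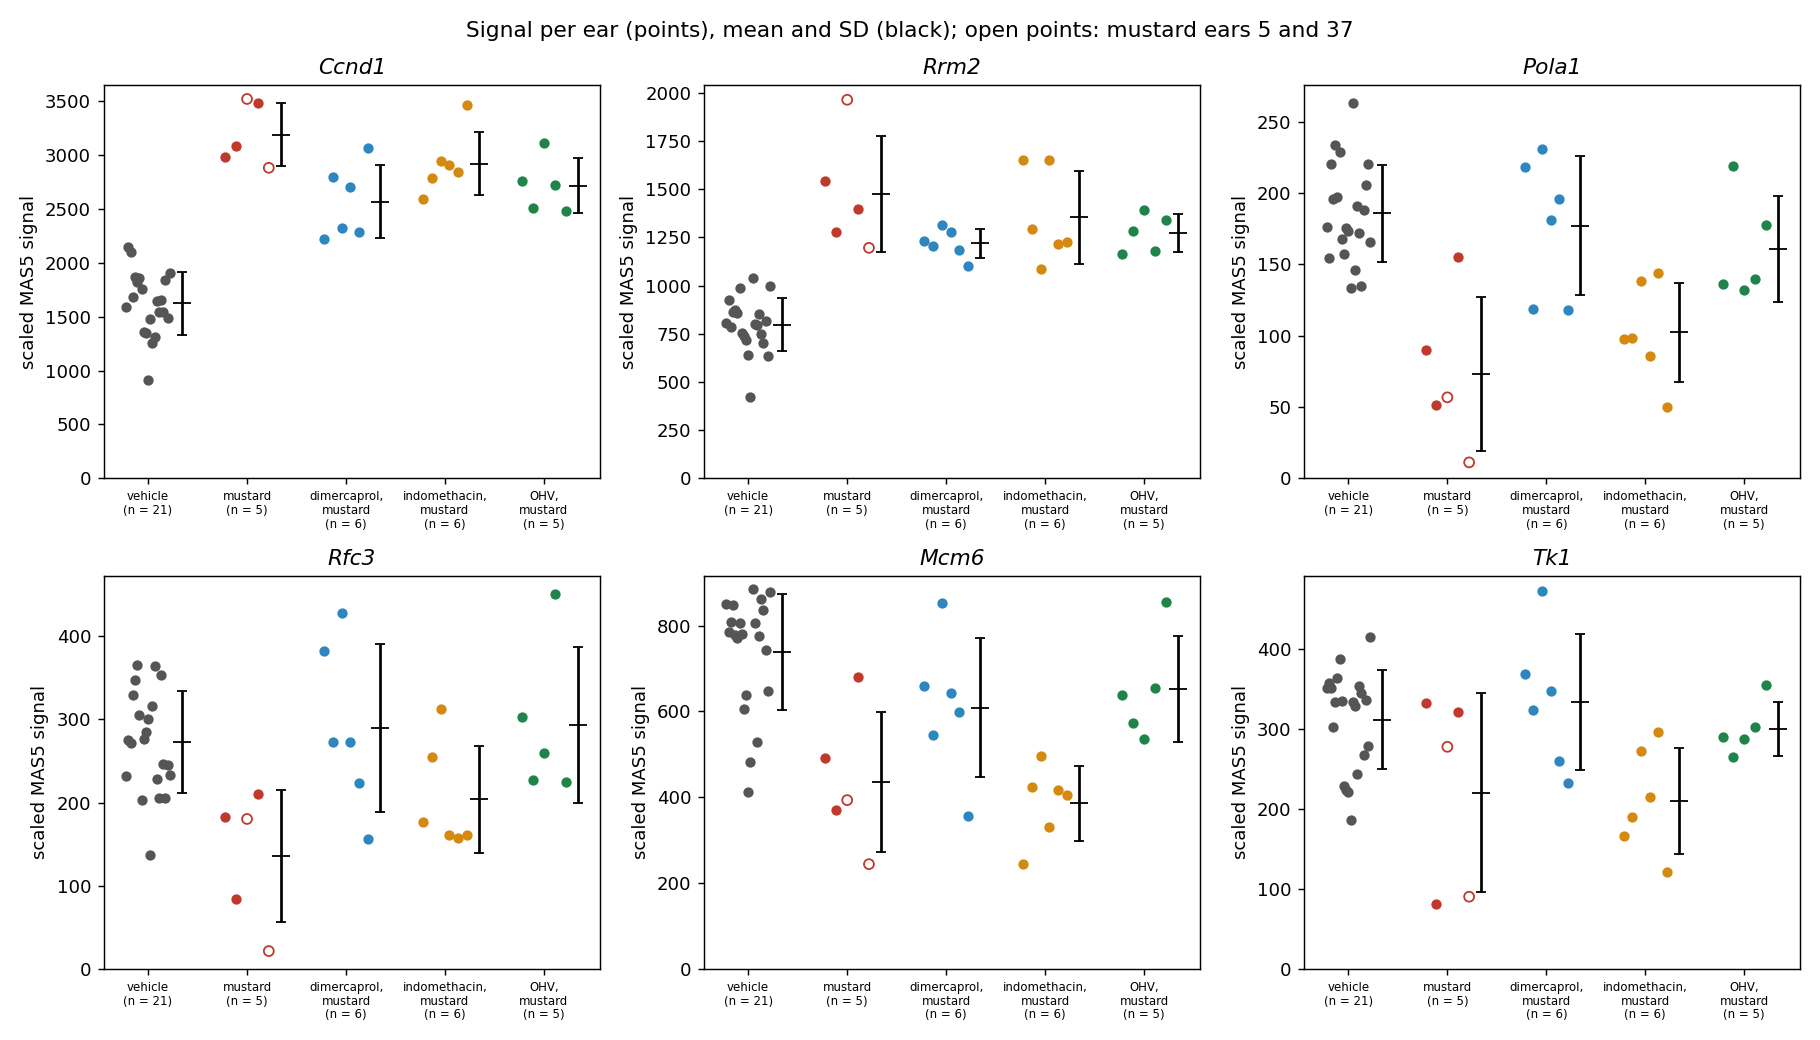
Scaled MAS5 signal of 6 members in each ear of the mustard experiment, with the mean and SD of each group in black and mustard ears 5 and 37 as open points. Every ear that received mustard lies above the highest vehicle ear for Ccnd1 and Rrm2, while Pola1, Rfc3, Mcm6 and Tk1 overlap the vehicle ears in all 4 groups.

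The mustard ears differed among themselves. Over the 10 array A members that fell, the median log2 difference from the vehicle mean was -1.46 in ear 37, -1.04 in ear 3, -0.59 in ear 5, -0.48 in ear 1 and -0.02 in ear 36. Ear 36 had no member below the vehicle range, whereas ears 3 and 37 had 11 and 13 of 33. The 4 array A members that rose had medians from 0.44 to 0.79 in the same ears, with ear 36 lowest and ear 5 highest. With the Gapdh ratio as a covariate, 4 members remained called (Ccnd1 0.96, Rrm2 0.77, Pola1 -1.04 and Rfc3 -0.79). Without ears 5 and 37, 7 did (these 4, Gins1, Gins2 and Mcm6). E2f2, Orc1 and Mcm10 were among the members whose calls were lost without ears 5 and 37. Without the scaling of arrays, 28 members were lower and 0 higher. Over all probe sets, 10439 of 15925 were then lower and 271 higher on array A, and 4847 of 17250 and 181 on array B. The median of all array A probe sets was -0.52. Ccnd1 (0.35, adjusted p = 0.0947) and Rrm2 (0.24, adjusted p = 0.282) lost their calls, although both stayed above that median.

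For 15 called members another kept probe set existed. Of these 21 probe sets, 18 had the same sign, 13 of them called, and none was called with the opposite sign. The array B probe sets of Pola1 (0.38), Chaf1b (0.30) and Cdc45 (0.06) were of opposite sign and not called.

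The 4 neighbouring lists stand beside the shares over all probe sets given above (23.7% lower and 19.2% higher on array A, 13.2% and 12.9% on array B), and no difference between lists was tested. Of 39 other replication genes tested, 9 fell and 3 rose (median -0.03). The folate enzyme Shmt1 (-0.63), the chromatin ATPase Atad2 (-0.56) and Mcm9 (-0.52) fell most, and the ubiquitin ligase adaptor Dtl (0.50), the clamp loader subunit Rfc2 (0.46) and Pold4 (0.46) rose. Of 18 other G1/S regulators, 7 fell and 2 rose (median -0.29): the pocket protein Rbl2 (-0.93), Tfdp2 (-0.54) and Ccna2 (-0.48) fell most, and the repressor E2F factors E2f7 (0.85) and E2f8 (0.71) rose. Of 6 CDK inhibitors, Cdkn1a, the p53 target p21, rose by 1.92 (SE 0.14, adjusted p = 1.09e-13), and Cdkn1b (-0.84) and Cdkn2d (-0.23) fell. Of 35 mitotic genes, 22 fell and 1 rose (median -0.49), led by Ccnb2 (-2.03), Mki67 (-1.42) and Ect2 (-1.32), with Tpx2 (0.61) the one that rose.

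Some markers of the cell types in the biopsy were called too. Over all probe sets the shares were 23.7% lower and 19.2% higher on array A, and 13.2% and 12.9% on array B. Of 7 basal keratinocyte markers, 3 fell (Krt15, Trp63 and Col17a1) and 2 rose (Krt14 and Itgb4), with a summed signal from 40189 to 62960 in mustard ears and from 47888 to 72758 in vehicle ears. Of 5 suprabasal markers 2 fell and 1 rose, of 7 follicle markers 1 fell and 1 rose, and of 3 sebocyte markers 2 fell and 1 rose. Counted in the same way, 1 of 2 tested neutrophil markers rose and 1 fell, 1 of 5 macrophage markers and 1 of 2 B cell markers rose, and 1 of 2 T cell and 1 of 2 adipocyte markers fell. By limma no fibroblast (5), endothelial (4), muscle (5) or cartilage (3) marker was called, with 1 fibroblast and 1 endothelial marker at an unadjusted p below 0.05. Their part in the member values was not tested.

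The next question was whether a drug given before mustard changed these genes against mustard alone. Several of the members that had fallen were called higher with dimercaprol and with OHV, and no member was called with indomethacin. With the animal as a block no member was called with any of the 3 drugs, and the dimercaprol and indomethacin differences were 1.03 and 1.04 for Gins1, 1.11 and 0.99 for Rfc3, and 0.95 and 0.90 for Gins2. These comparisons share the 5 mustard ears. With dimercaprol, 4 of 33 members on array A and 2 of 5 on array B were higher and none lower, against 15.8% higher and 11.1% lower on array A and 9.37% and 7.11% on array B. With OHV, 5 of 33 and 2 of 5 were higher and none lower, against 10.6% and 6.54% on array A and 6.55% and 3.02% on array B. With indomethacin no member was called (limma), against 1.21% higher and 0.659% lower on array A and 2.39% and 0.777% on array B. At an unadjusted p below 0.05 there were 7 of 33 and 1 of 5 members, against 19.4% and 18.4% of all probe sets.

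Pola1 differed most with dimercaprol. Its dimercaprol ears ran from 118 to 231 (median 188), above the mustard median of 56.8 but overlapping ear 36 (log2 1.31, SE 0.26, adjusted p = 0.000206). The OHV ears read 136, 219, 132, 140 and 178, and the highest mustard ear, at 155, lay among them (log2 1.21, SE 0.27, adjusted p = 0.00243). The indomethacin ears ran from 49.9 to 144 (median 98.1).

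Rfc3 had dimercaprol ears from 156 to 428 (median 273) and a log2 difference of 1.19 (SE 0.29, adjusted p = 0.00188). The OHV ears read 303, 228, 259, 451 and 225, all above the highest mustard ear of 210 (log2 1.23, SE 0.30, adjusted p = 0.00494). The indomethacin ears ran from 158 to 312 (median 169).

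Gins2 was higher with dimercaprol (0.91, adjusted p = 0.0236) and with OHV (0.91, adjusted p = 0.0466), whose ears, from 921 to 1239, lay above the highest mustard ear of 776. E2f2 (0.78 and 0.76) and Gins1 (0.73 and 0.80) were called in both comparisons too. Tk1 passed the threshold with dimercaprol (0.74, adjusted p = 0.0215), and Mcm6 (0.62) and Chaf1b (0.40) with OHV. Most of these calls were lost without ears 5 and 37 or with the animal as a fixed block. None was lost with the animal as a random block over all ears. Without ears 5 and 37, 2 members (Pola1 and Rfc3) were called with dimercaprol and none with OHV, and with the animal as a block none was called in either comparison, where Pola1 was 1.34 (adjusted p = 0.101) and 1.48 (adjusted p = 0.174).

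Against the vehicle, ears with each drug and mustard kept the rise of Ccnd1 and Rrm2. These comparisons share the 21 vehicle ears. With dimercaprol, 2 of 33 members on array A were higher and none lower, against 1.83% and 1.21%, and none of 5 on array B was called, against 0.394% and 0.336%. With OHV, 2 of 33 were higher and none lower, against 1.82% and 0.948%, and none of 5 on array B, against 0.325% and 0.214%. With indomethacin, 2 of 33 were higher and 12 lower, against 16.3% and 19.7%, and on array B 1 of 5 was lower and none higher, against 7.09% and 5.68%.

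Ccnd1 ears ran from 2224 to 3063 with dimercaprol (median 2513) and from 2590 to 3463 with indomethacin (median 2875), and read 2760, 2510, 3115, 2724 and 2479 with OHV. Every one was above the highest vehicle ear of 2147. The log2 differences were 0.67, 0.86 and 0.76 (SE 0.10, 0.10 and 0.11), with adjusted p = 3.44e-05, 1.73e-08 and 1.26e-05.

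Rrm2 ears ran from 1103 to 1314 with dimercaprol (median 1217) and from 1086 to 1654 with indomethacin (median 1261), and read 1165, 1283, 1391, 1180 and 1343 with OHV. All lay above the highest vehicle ear of 1041. The log2 differences were 0.62, 0.76 and 0.68, with adjusted p = 0.000289, 6.06e-07 and 0.000168. With the animal as a block the dimercaprol calls were lost (0 members called, Ccnd1 0.46 and Rrm2 0.52), and those with indomethacin and OHV were kept.

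The 13 members that were lower with indomethacin and mustard than in vehicle ears came from every role. The largest differences were those of Gins2 (-1.09), Mcm6 (-0.92), Uhrf1 (-0.85), Ccnd2 (-0.84) and Pola1 (-0.81), and Tk1, Rpa2, E2f1, Mcm3, Pold1, Pola2, Chaf1b and Rfc4 lay between -0.56 and -0.41. For Mcm6 the ears ran from 244 to 495 (median 410), with 3 of them inside the vehicle range of 412 to 884 and 3 below it. All 6 ears were below the vehicle mean for each of the 13 members. With the animal as a block none of these 13 was called, and with the animal as a random block over all ears all 13 still were.

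Between drugs, dimercaprol ears were higher than indomethacin ears for 5 of 33 members on array A, against 6.08% higher and 4.42% lower, and for none of 5 on array B, against 1.08% and 0.701%. These were Pola1 (0.72), Ccnd2 (0.66), Mcm6 (0.62), Rfc4 (0.57) and Prim1 (0.38). OHV ears were higher than indomethacin ears for 3 of 33, Mcm6 (0.75), Ccnd2 (0.69) and Chaf1b (0.47), against 1.19% higher and 0.898% lower, and none of 5 on array B was called, against 0.0174% and 0.029%. Between dimercaprol and OHV no member was called by limma, against 0% on both arrays. At an unadjusted p below 0.05 there were 0 of 33 and 1 of 5 members, against 2.07% and 3.4% of all probe sets, and the member differences ran from -0.47 to 0.50. With the animal as a block, 1 member was called between dimercaprol and indomethacin and 0 between OHV and indomethacin.

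The vehicle ears of the same animals allow each right ear to be set against its own left ear. In all 17 animals with both ears, Ccnd1 and Rrm2 were higher in the right ear, by 0.35 to 1.65 and by 0.37 to 1.496 on the log2 scale. No other member differed in one direction in all 17, so that 2 of 33 were higher and 0 lower on array A, against 1.39% and 0.936% of all probe sets, and 0 of 5 on array B, against 0.383% and 0.614%. With mustard alone, the right ear differed from the left for Pola1 by -0.86, -1.81, -0.37 and -3.12 in animals 1, 3, 36 and 37. With the animal as a block (34 ears), Ccnd1 and Rrm2 were called with mustard alone (0.83 and 0.82), with indomethacin (1.25 and 1.06) and with OHV (0.81 and 0.70), and not with dimercaprol (0.46, adjusted p = 0.139, and 0.52, adjusted p = 0.144).

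**Figure D3:**
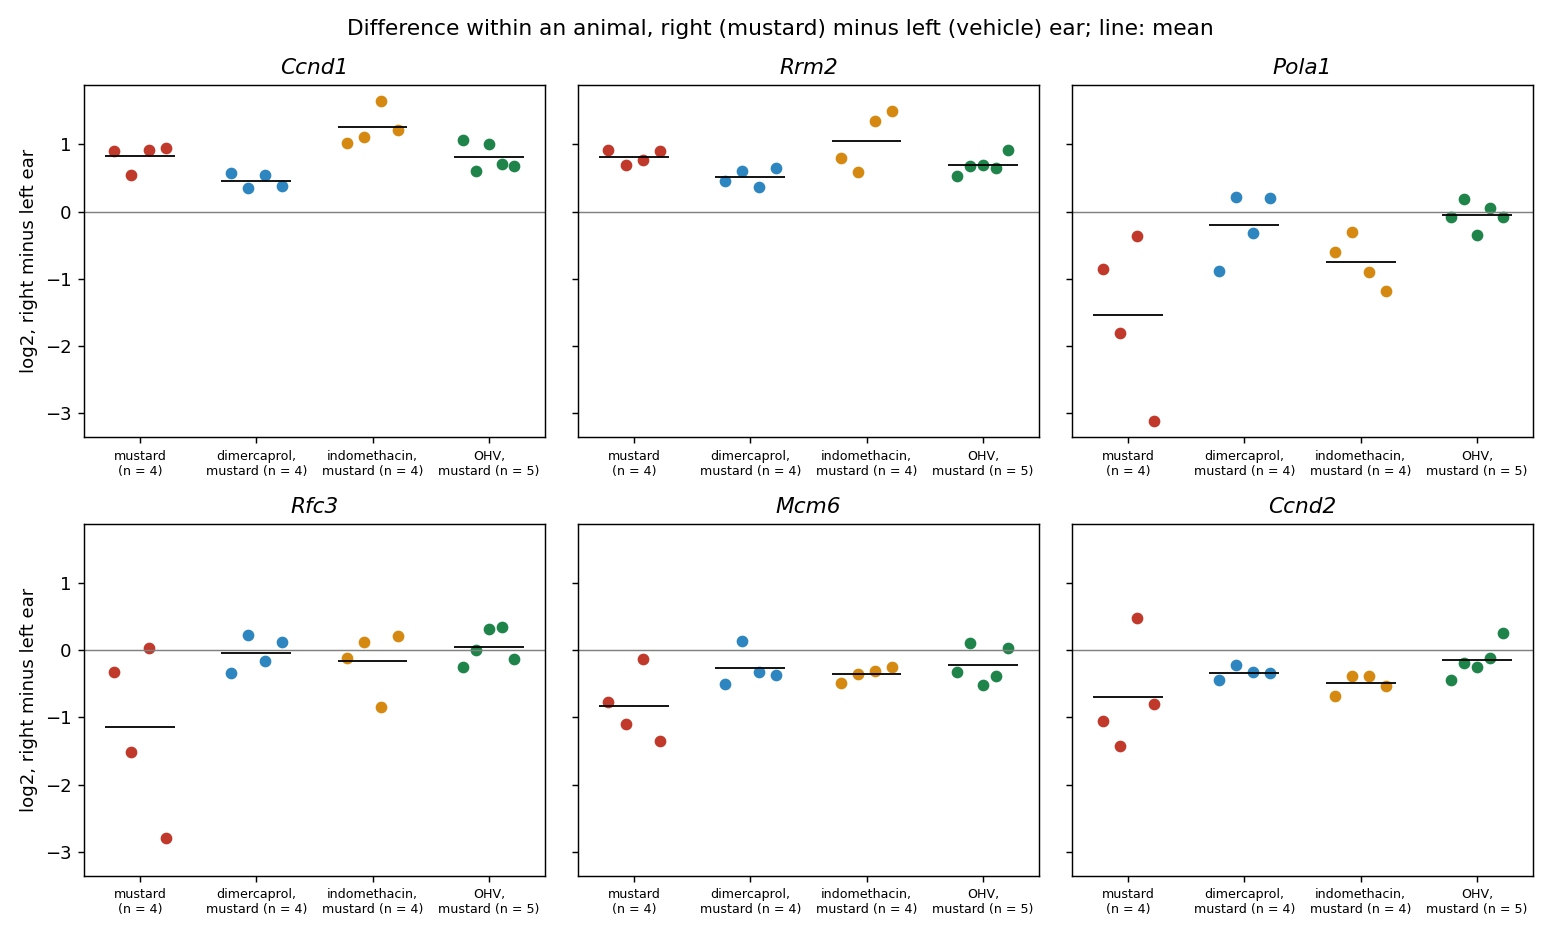
Log2 difference between the right ear with mustard and the left ear with vehicle of the same animal, for 6 members, with a line at the mean of each group. For Ccnd1 and Rrm2 all 17 points lie above 0, and for Pola1 the 4 points with mustard alone run from -3.12 to -0.37.

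With this block the lower calls with indomethacin were lost. None of the 13 was called. The differences were -0.35 for Mcm6 (adjusted p = 0.137), -0.35 for Uhrf1 (0.248), -0.47 for Gins2 (0.47), -0.49 for Ccnd2 (0.0806) and -0.15 for Tk1 (0.745), all smaller than without the block. Pola1 (-0.75, adjusted p = 0.0934) and Rfc4 (-0.37, adjusted p = 0.232) lost their calls with differences close to those without it (-0.81 and -0.41). The 3 called members were all higher, Ccnd1, Rrm2 and Pcna (0.46, adjusted p = 0.019). Between drugs, Ccnd1 was lower with dimercaprol than with indomethacin (-0.79, adjusted p = 0.0357), the only member called there, and none was called between OHV and indomethacin. These block values also depend on the left ears. For Ccnd1 the left ears averaged 1276 in the 4 indomethacin animals and 1694 in the 13 others, and for Pcna 2765 and 3401, neither called by limma. Right ears averaged 2567 for Ccnd1 with dimercaprol and 2922 with indomethacin (n = 6 each). The part of the left ears in these calls was not tested.

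The left ears of the indomethacin animals were low themselves. This comparison was added after the values were seen. It sets the 4 vehicle ears whose right ear received indomethacin and mustard against the 13 whose right ear received mustard alone or with another drug. On array A, all 33 members were lower in the 4 ears, with a median log2 difference of -0.30 against -0.03 over all probe sets, and 17 of the 33 members (51.5%) had an unadjusted p below 0.05, against 8.4% of all probe sets. Adjusted over all probe sets, 2 of 33 were lower and none higher in limma, against 0.044% lower and 0.138% higher. On array B no member was called, against 0% lower and 0.0058% higher, and 2 of 5 had an unadjusted p below 0.05, against 6.08%. Ears did not overlap for 2 of 33 members on array A, both lower, against 0.113% lower and 0.201% higher, and for 0 of 5 on array B, against 0.0348% and 0.0696%.

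Mcm4, a helicase subunit, read 510, 519, 413 and 450 in the left ears of animals 17, 18, 19 and 22, below the lowest of the 13 other ears (620 to 799). The log2 difference was -0.53 (SE 0.09, adjusted p = 0.0169). Tk1 read 229, 224, 221 and 186 against 244 to 387, also without overlap (-0.58, SE 0.11, adjusted p = 0.0297). Mcm5 (-0.87), Gins2 (-0.80) and Uhrf1 (-0.72) had larger differences and were not called.

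The median member difference from the mean of all vehicle ears was -0.41 to -0.16 in these 4 ears and -0.11 to 0.18 in the other 17. Their trimmed means (136 to 206) lay within the range of the other vehicle ears, and so did their Gapdh ratios (-0.25 to 0.06) except that of ear 22, which at -0.25 was the lowest of the 21 vehicle ears. The calls depend on single ears: without the vehicle ear of animal 19 no member was called, and 37 of 38 members were still lower.

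**Figure D4:**
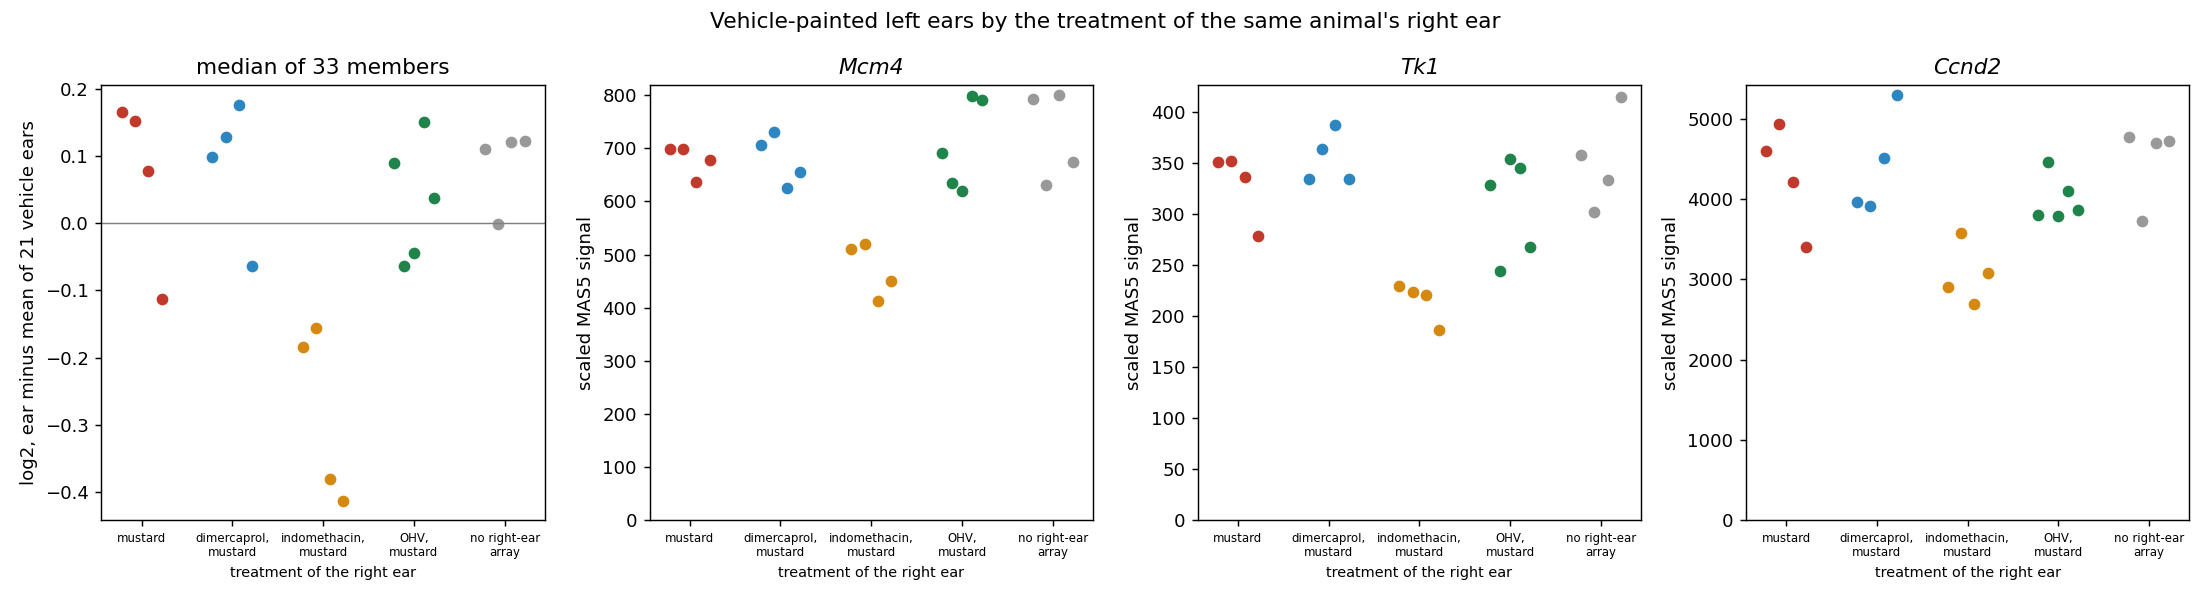
Vehicle-painted left ears grouped by the treatment of the right ear of the same animal: the median over 33 members relative to the mean of 21 vehicle ears (log2), and the scaled signals of Mcm4, Tk1 and Ccnd2. The 4 ears of indomethacin animals have medians of -0.41 to -0.16, below all 17 others.

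Without mustard, the drugs and their solvent gave no called member. Dimercaprol, indomethacin and OHV alone against ethanol called 0 of 33 members by limma, and so did ethanol against naive ears, against 0% of all probe sets in each of the 4 comparisons. At an unadjusted p below 0.05 there were 9, 3, 6 and 5 of the 33 members, against 4.85%, 7.01%, 6.23% and 3.15% of all probe sets. With 3 ethanol ears and 3 naive animals the number of arrays limits the precision. The 4 comparisons share the 3 ethanol ears, whose median member differences from the mean of vehicle ears were -0.19, -0.41 and -0.48. Before scaling, the array of ethanol ear 507 had a trimmed mean of 67.0, close to the lowest on array A (66.9). The Gapdh ratio of ethanol ear 515 was 0.31, above the highest vehicle ear (0.24). Ethanol ear 520 read 152 and 0.08 on these measures. Each of the 3 ethanol ears is the left ear of an animal with a drug alone, a pairing that the fit left out. The median member differences were 0.41, -0.06 and 0.24 against ethanol, and -0.33 for ethanol against naive, where 31 of 33 members were lower, against medians of -0.01 to 0.02 over all probe sets. Ccnd1 ears read 1019 to 1411 with indomethacin alone, 1355 to 1765 with ethanol, 1738 to 2273 in naive ears, 1753 to 2055 with dimercaprol alone and 1523 to 2069 with OHV alone. None of these ears reached the lowest ear with mustard alone, at 2882. The animals without mustard are numbered apart from those of the mustard experiment, so set and treatment cannot be told apart here.

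Vehicle ears against naive ears called 1 of 33 members, lower, and none higher, against 14.2% lower and 7.33% higher. It was Mcm10, whose 21 vehicle ears ran from 190 to 328 and whose 5 naive ears ran from 307 to 400, so that single ears overlapped while the means of the 3 naive animals lay above every vehicle ear (-0.47, SE 0.13, adjusted p = 0.00732). The 5 mustard ears of this gene, from 270 to 445, overlapped both groups. Naive and vehicle ears come from the separately numbered sets of animals, so set and treatment cannot be told apart in this comparison.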

How the data were processed

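RNA from ear biopsies was hybridised to a pair of 1-colour Affymetrix mouse arrays, 64 on array A (22690 probe sets) and 43 on array B (22575). The deposited values are intensity signals that the authors made with MAS5, per the submitters' processing notes, with settings and version not given in the sources used here. Signals of an array were multiplied to bring its trimmed mean to 500 (2% trimmed from each end), because deposited brightness differed 4.01-fold on array A and 2.77-fold on array B, and log2(signal + 16) was taken. Fold changes are on that scale, which understates changes of low genes. A probe set entered the fit if its scaled signal averaged 100 or more over the arrays (15925 and 17250 probe sets), and the arrays were fitted apart with limma 3.58.1 in R 4.3.3 (lmFit, eBayes with trend). P-values were adjusted by Benjamini-Hochberg over all kept probe sets, and 0.05 was the threshold. On array A, 20393 probe sets name 1 gene, 691 several and 1606 none, and on array B 14674, 245 and 7656. Naive ears of an animal were averaged. The experiments with and without mustard were fitted apart, except for vehicle against naive, which used all 64 array A ears in 1 fit. The number of arrays limits the precision.

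Groups came from the treatment labels. Ears with the same number are the left and right ear of 1 animal, by their titles. Over 17 such pairs the deviations from group means correlated at 0.16 on average (-0.10 to 0.44), and the fit with the animal as a fixed block used these 34 ears. With the animal as a random block over all ears, all 70 member results examined kept their sign and call status. Those were the tested members for mustard against vehicle, and the called members of the drug comparisons with mustard or vehicle. Values by ear were given for the members with the lowest and highest difference of mustard against vehicle in each role, the 6 lowest and 4 highest called members over all roles, and up to 4 called members with the largest size in each comparison of a drug before mustard with mustard alone. Other members with values by ear were chosen after their values were seen. From each other list, up to 3 called genes per direction were named, largest first. The members and lists were chosen with earlier results of these data known. The steps were tested on simulated data. Alternatives were other scalings, offsets and minimums, covariates, blocks and the removal of single ears.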

Additional observations from a re-analysis of the deposited data

Results flagged for a closer look

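Within groups of 4 to 10 ears, 6 of 96 group values examined over the named members had 1 ear far from the others by Dixon's test, and chance gives about 1 in 20 such groups. Mustard ear 36 was the highest of 5 for Ccnd2 (5893.29, with the next ear at 2318.16) and for Uhrf1 (346.15, next 188.22). Mustard ear 37 was the highest of 5 for Mcm10 (445.455, next 309.474). The ear of animal 508, with dimercaprol alone, was the highest of 4 for Mcm10 (423.888, next 374.304) and the lowest of 4 for Uhrf1 (185.224, next 346.69). The ear of animal 33, with OHV and mustard, was the highest of 5 for Uhrf1 (441.288, next 289.535). All values are scaled signals.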

How the results depend on the processing

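Counts are of members called, with the reported count first. For mustard against vehicle (18) the count was 4 with the Gapdh ratio as a covariate, 11 with a minimum of 300, 28 without rescaling, 8 with array brightness as a covariate and 7 without mustard ears 5 and 37, and 12 to 19 when 1 mustard ear was left out. For dimercaprol then mustard against mustard (6) it was 1 with the Gapdh covariate, 10 with the mean over a gene's probe sets, 36 without rescaling, 0 with the replicate block (the animal), 0 with brightness, 2 without ears 5 and 37, 10 without vehicle ears 19 and 22, and 3 to 16 with 1 ear left out (3 without mustard ear 37, 16 without ear 36). For OHV then mustard against mustard (7) it was 0 with the Gapdh covariate, 3 with the minimum of 300, 30 without rescaling, 0 with the replicate block, 0 with brightness, 0 without ears 5 and 37, and 2 to 12 with 1 ear left out (2 without ear 37, 12 without ear 36, and 3 or 4 without mustard ear 3 or 5 or OHV ear 30 or 33). For indomethacin then mustard against mustard (0) it was 4 without rescaling and 0 to 3 with 1 ear left out (2 without mustard ear 1, 3 without ear 36). When arrays were not rescaled, the array A median over all probe sets moved to 0.76, 0.63 and 0.45 in the dimercaprol, OHV and indomethacin comparisons with mustard. There 13162, 10798 and 5295 of 15925 array A probe sets were called higher, and 61, 40 and 3 lower. Against vehicle, the dimercaprol count (2) was 0 with the replicate block, the indomethacin count (15) was 9 without rescaling, 3 with the replicate block and 12 to 18 with 1 ear left out, and the OHV count (2) was 1 without rescaling. With 1 ear left out the dimercaprol and OHV counts were 2 to 2. Dimercaprol against indomethacin (5) gave 3 with the minimum of 300, 3 with no filter, 10 without rescaling, 2 with quantile normalization, 1 with the replicate block, 0 with brightness, and 0 to 7 with 1 ear left out (0 without indomethacin ear 16, 1 or 2 without dimercaprol ear 6, 9, 10 or 11 or indomethacin ear 17, 19 or 22). OHV against indomethacin (3) gave 0 with the Gapdh covariate, the random animal block, no rescaling, the replicate block or brightness, 1 with no filter or quantile normalization, and 0 to 4 with 1 ear left out (0 or 1 without OHV ear 27, 28, 30 or 33 or indomethacin ear 16, 17, 19 or 22). Vehicle against naive (1) gave 2 with the Gapdh covariate, no filter or quantile normalization, 0 without rescaling, and 0 to 1 with 1 naive animal left out (0 without animal 503). The left ears of indomethacin animals (2) gave 0 without rescaling, 4 with brightness, and 0 to 3 with 1 ear left out (0 without ear 19, 1 without ear 1, 3, 9, 10, 18, 22 or 27). Dimercaprol against OHV and the 4 comparisons with ethanol stayed at 0 with 1 ear left out.

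The sign of mustard against vehicle turned as follows (log2). With the Gapdh covariate, Fen1 was -0.0427, Mcm7 -0.0535, Cdk2 -0.0655, Ccne2 0.0085, Rrm1 0.0435, Cdk4 0.0455 and Prim1 0.0896. With brightness, Cdk2 was -0.0194 and Cdk4 0.12. With the mean over probe sets, Mcm2 was -0.11 and Fen1 -0.13. Without rescaling, Ccne1 was -0.16, Tyms -0.17, Mcm10 -0.30, Orc6 -0.32, Slbp -0.36, Mcm2 -0.38, Dut -0.41, Cdt1 -0.41, Mcm7 -0.42, Fen1 -0.50, Cdk2 -0.50 and Pcna -0.50. With quantile normalization, Tyms was -0.0078 and Cdk4 0.0282. With the replicate block, Dut was -0.0124, Cdt1 -0.14, Ccne1 -0.21 and Cdk2 -0.25. Without ears 5 and 37, Cdk2 was -0.0302, Cdk4 0.0378, Prim1 0.0433 and Rrm1 0.0652, and without vehicle ears 19 and 22 Cdk2 was -0.0286. With 1 mustard ear left out, Cdk2 ran from -0.0801 to 0.13, Cdk4 from -0.0854 to 0.0875, Mcm2 from -0.0505 to 0.43, Prim1 from -0.21 to 0.0345 and Rrm1 from -0.29 to 0.0149. The cause of these changes was not tested. The brightness covariate and the removal of ears 5 and 37 or 19 and 22 were chosen after seeing the data.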
